A study of Homo sapiens with 35 samples.

Results

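The transcription factors ZEB1, ZEB2, SNAI1, SNAI2 and TWIST1 and the mesenchymal genes VIM, CDH2 and FN1 were followed through 9 depletions and glucose starvation in HEK293T cells. These 8 genes were found by gene name among the 60665 genes of a table of raw read counts. All 8 passed the filter on low counts, which kept 19275 genes. HEK293T is an established line of human embryonic kidney cells.

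Total RNA was depleted of ribosomal RNA and sequenced in 35 libraries of 15 groups. All cells were transfected repeatedly with siPOOLs (complex mixtures of small interfering RNAs) at 5 nM over 72 h, and controls received a non-targeting control mixture. The first set, numbered 1 and 2, comprised 3 controls and depletions of ZEB1, TSPYL2, ZNF687, ZNF609 and ZNF608 in 2 libraries apiece, all with glucose. The second set, numbered 3 and 4, comprised 4 controls and depletions of INTS13, HDGF and ZNF655 in 2 libraries apiece with glucose, and 4 control, 2 INTS13 and 2 HDGF libraries kept without glucose for 24 h. A further 2 ZMYND8 libraries and 2 controls labelled for ZMYND8, all with glucose, were numbered 3 and 4 as well. INTS13 is a subunit of Integrator, a complex that cleaves nascent RNA, and the study treated the other targets as transcription factors that interact with it. ZNF655 had no control of its own in the labels and was set against the second-set controls.

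ZEB1 and ZEB2 are zinc finger proteins that bind E-box sequences and repress epithelial genes such as CDH1, which encodes E-cadherin. SNAI1, SNAI2 and TWIST1 also act at E-boxes, and together these factors drive the epithelial to mesenchymal transition in embryos and tumours. VIM (vimentin, an intermediate filament), CDH2 (N-cadherin) and FN1 (fibronectin, a matrix protein) are markers of the mesenchymal state, and the miR-200 family of microRNAs represses ZEB1 and ZEB2.

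Promoters of ZEB1 and VIM are shown because both genes fell when ZEB1 was depleted, ZEB1 itself as the target of the siPOOL. They are RefSeq sequences on GRCh38.p14 and end at the base before an annotated start. Windows from 250 bases before to 50 after a start were given for 5 of the 8 genes, 12 windows in all, and none was given for SNAI1, SNAI2 or TWIST1. Each window was searched on both strands for the E-box, spelled CACCTG or its reverse complement CAGGTG, and for the GC box, spelled GGGCGG or its reverse complement. The E-box stood in 2 of the 12 windows, both among the 7 of ZEB1, and in 20.6% of all 35116 windows of the table. The ZEB1 window shown was chosen as the one of the 7 with the most E-boxes. Its sequence before the start, chr10:31318966-31319215 on the plus strand, holds 2 E-boxes, in capitals.
ZEB1 promoter: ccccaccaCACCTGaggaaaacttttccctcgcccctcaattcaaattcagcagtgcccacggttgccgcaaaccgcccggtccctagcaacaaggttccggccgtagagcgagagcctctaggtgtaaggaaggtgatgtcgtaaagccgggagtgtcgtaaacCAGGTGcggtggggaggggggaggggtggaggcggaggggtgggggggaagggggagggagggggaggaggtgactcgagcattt
The VIM sequence, chr10:17227991-17228240 on the plus strand, holds no E-box and 1 GC box, in capitals. The GC box stood in 8 of the 12 windows and in 45.0% of all windows, so it does not set VIM apart.
VIM promoter: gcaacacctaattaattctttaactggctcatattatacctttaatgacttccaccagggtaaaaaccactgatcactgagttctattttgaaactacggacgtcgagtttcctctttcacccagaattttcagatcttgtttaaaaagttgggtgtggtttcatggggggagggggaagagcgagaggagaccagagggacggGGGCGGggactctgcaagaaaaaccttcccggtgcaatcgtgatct
A match is a description of the sequence and not a shown binding site.

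The mature miR-200 family is shown because its members are known regulators of ZEB1 and ZEB2 and fall into 2 seed groups, one of 3 and one of 2 microRNAs. Capitals mark the seed, bases 2 to 8, in the RefSeq sequences.
hsa-miR-200b-3p: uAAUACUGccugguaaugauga
hsa-miR-200c-3p: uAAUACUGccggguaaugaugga
hsa-miR-429: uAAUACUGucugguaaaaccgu
hsa-miR-141-3p: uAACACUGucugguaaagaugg
hsa-miR-200a-3p: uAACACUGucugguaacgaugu
The host transcript and hairpin genes examined for these microRNAs held few or no counts. MIR200CHG, the host transcript of miR-200c and miR-141, had 8 counts summed over the 35 libraries and at most 3 in 1 library. MIR141 had 2 counts, in 1 library, and MIR200A, MIR200B, MIR200C and MIR429 had 0. Total RNA libraries do not measure mature microRNAs, so these counts say nothing of their level. No host transcript of miR-200a, miR-200b or miR-429 was examined, so the counts do not show whether theirs was present.

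Libraries held 16.8 to 50.8 M counts, the median being 25.6 M. The HEK293T markers KRT8, KRT18, NEFL, NEFM, INA, PAX2 and SIX2 were all detected, with a summed level of 155 to 279 CPM (read counts scaled to library size, with TMM factors). Of the 5 fibroblast markers, DCN had a median under 0.1 CPM, and the summed level of the list was 2.79 to 9.92 CPM. The 6 leukocyte and endothelial markers summed to 0.711 to 2.54 CPM, and CD3E was at 0 in every library. Number-1 libraries of the first set stood apart from the others. The share of counts in 85 ribosomal protein genes was 13.1% in control 1a and 16.5% in the first ZEB1 library, against 8.77% and 8.79% in controls 1b and 2 and 9.07% in the second ZEB1 library. Whether replicates came from separate cultures is not stated, and p-values here reflect only how far these libraries spread. In bulk RNA fewer cells of a type and less RNA per cell cannot be told apart.

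Per exonic base, VIM was the most abundant of the 8 genes, with a median of 94.6 RPKM (reads per kilobase of exons, scaled to library size) over the 35 libraries. CDH2 followed at 22.7, SNAI2 at 9.25, ZEB1 at 4.88, TWIST1 at 4.20, FN1 at 3.45, ZEB2 at 1.47 and SNAI1 at 0.355 RPKM. The ranges of VIM (61.2 to 135 RPKM) and CDH2 (14.6 to 25.0 RPKM) did not overlap with each other or with those of the genes below. Those of SNAI2 (5.27 to 13.1), ZEB1 (1.87 to 7.06), TWIST1 (3.02 to 6.10) and FN1 (1.27 to 5.07) overlapped between neighbours, as did those of FN1 and ZEB2 (1.07 to 2.02) and of ZEB2 and SNAI1 (0.171 to 1.24), so the order between these neighbours is not beyond the spread over libraries. SNAI2 lay wholly above FN1, ZEB2 and SNAI1. This order depends on the exonic lengths used, 17216 bases for FN1, 24861 for ZEB2 and 3281 for SNAI2. By median CPM, without length, FN1 (59.4) and ZEB2 (36.6) stood above SNAI2 (30.4). SNAI1 rested on only 8 to 58 counts per library, and its values are correspondingly imprecise.

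**Figure D1:**
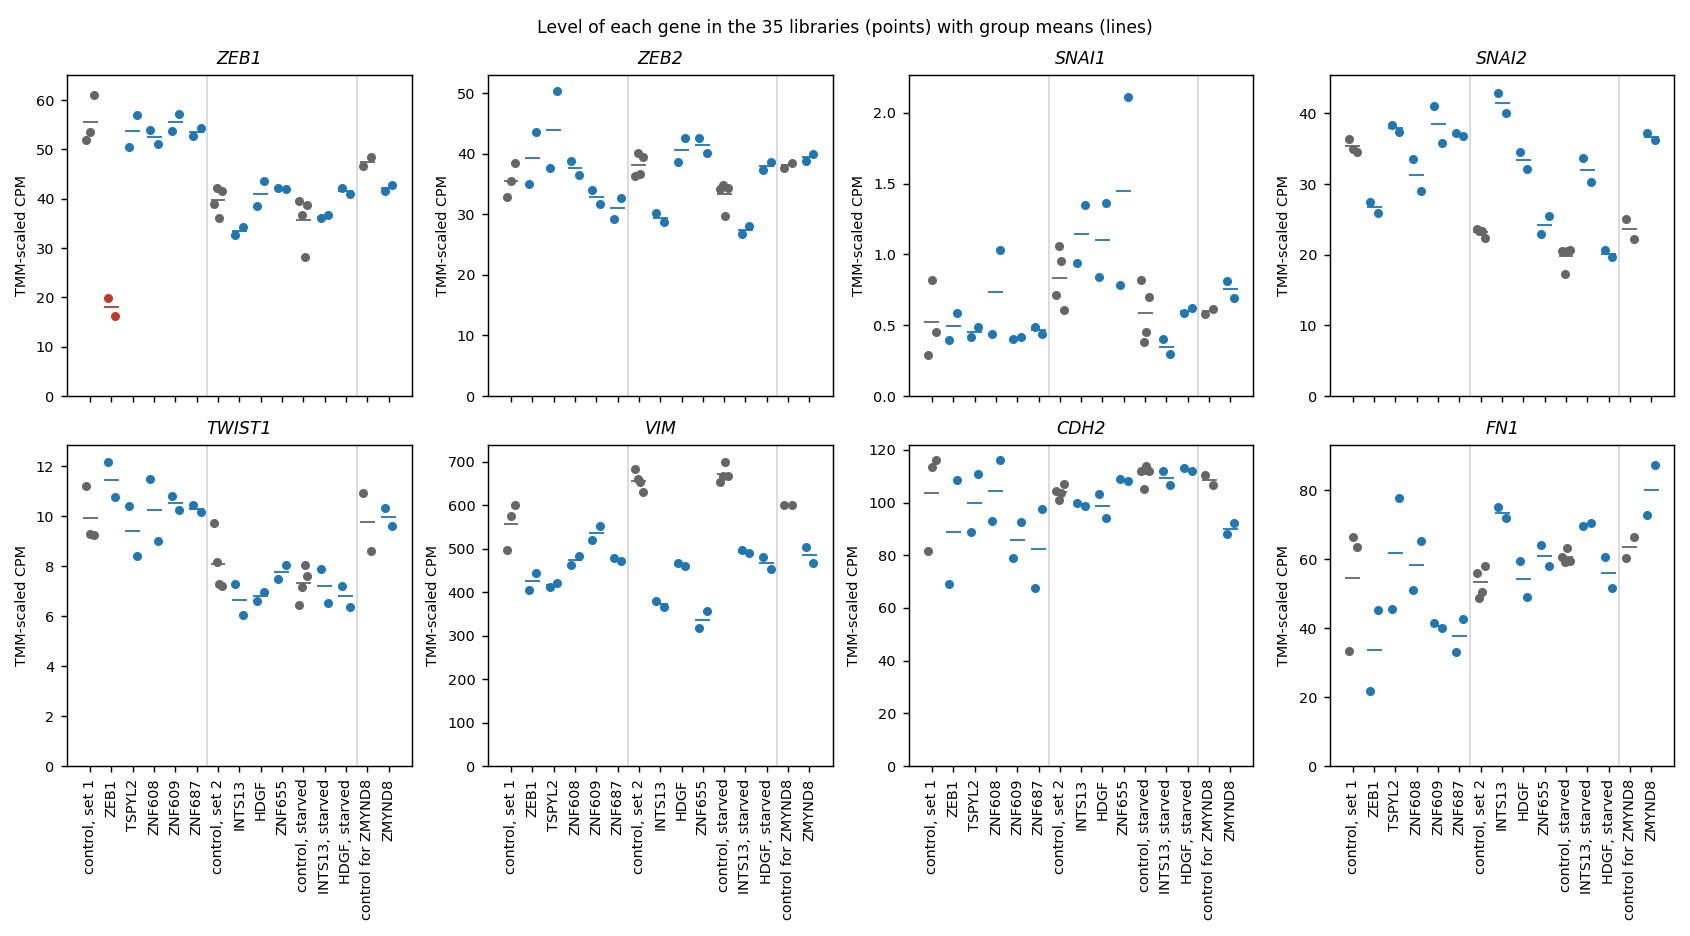
TMM-scaled CPM (linear axis from 0) of each of the 8 genes in the 35 libraries, by group; grey points are controls, blue points depletions (red for ZEB1 in its own panel), and lines are group means. ZEB1 lies at 16.2 and 19.9 CPM in its own depletion and above 28 CPM elsewhere, while FN1 and CDH2 spread most between libraries of the first set.

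Control levels differed between the sets, so each depletion was compared only with controls of its own set unless stated. ZEB1 was at 52.0, 53.5 and 61.0 CPM in the first-set controls, at 36.0 to 42.2 CPM in the second-set controls and at 46.7 and 48.4 CPM in those labelled for ZMYND8. SNAI2 was at 35.3 ± 0.977 CPM (SD, n = 3) in the first set, 23.2 ± 0.589 (n = 4) in the second and 23.6 ± 2.00 (n = 2) for ZMYND8. VIM was lowest in the first-set controls at 558 ± 54.7 CPM (SD, n = 3), against 657 ± 22.4 (n = 4) and 601 ± 0.403 CPM (n = 2) in the others. These differences coincide with the sets and cannot be told apart from them.

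Over 14 comparisons the 8 genes gave 112 tests, of which 17 passed an adjusted p of 0.05 (edgeR quasi-likelihood test, Benjamini-Hochberg over 19275 genes), 5 higher and 12 lower. VIM and SNAI2 gave 15 of the 17. VIM fell in 7 comparisons and rose in 1, and SNAI2 rose in 4 and fell in 3, while ZEB1 and ZEB2 each fell in 1. SNAI1, TWIST1, CDH2 and FN1 passed in 0 of 14 comparisons by edgeR and in 0 by DESeq2. At an unadjusted p under 0.05 SNAI1 passed in 2, TWIST1 in 0, CDH2 in 1 and FN1 in 3.

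The number of the 8 genes called is set here against the share of all genes called in the same comparison. ZEB1 depletion called 3 of 8 against 3.77% of all genes, but 1 of the 3 is the target itself, which leaves 2 of 7. TSPYL2 depletion called 1 of 8 against 2.22% (1.14% higher and 1.08% lower), and ZNF608 depletion 0 against 2.76% (1.08% higher and 1.68% lower). ZNF609 depletion called 0 against 0.571% and ZNF687 depletion 0 against 0.254%. At an unadjusted p under 0.05 these last 3 comparisons gave 1, 0 and 3 of the 8 genes, and DESeq2 called 1, 0 and 0. INTS13 depletion called 3 of 8 against 12.8%, HDGF depletion 2 against 4.49% (1.89% higher and 2.6% lower), ZNF655 depletion 1 against 11.5% (6.57% higher and 4.88% lower) and ZMYND8 depletion 1 against 0.747% (0.446% higher and 0.301% lower). A single gene of 8 is near the background where 11.5% are called. Starvation called 1 of 8 in control cells against 16.8% (8.77% higher and 8.05% lower), 1 in INTS13-depleted cells against 1.32% (0.856% higher and 0.467% lower) and 1 in HDGF-depleted cells against 3.54% (2.09% higher and 1.45% lower). Among starved cells, INTS13 depletion called 2 of 8 against 3.86% (2.32% higher and 1.54% lower) and HDGF depletion 1 against 0.659% (0.265% higher and 0.394% lower). Depletions of 1 set share their controls, so their values are not independent of each other.

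**Figure D2:**
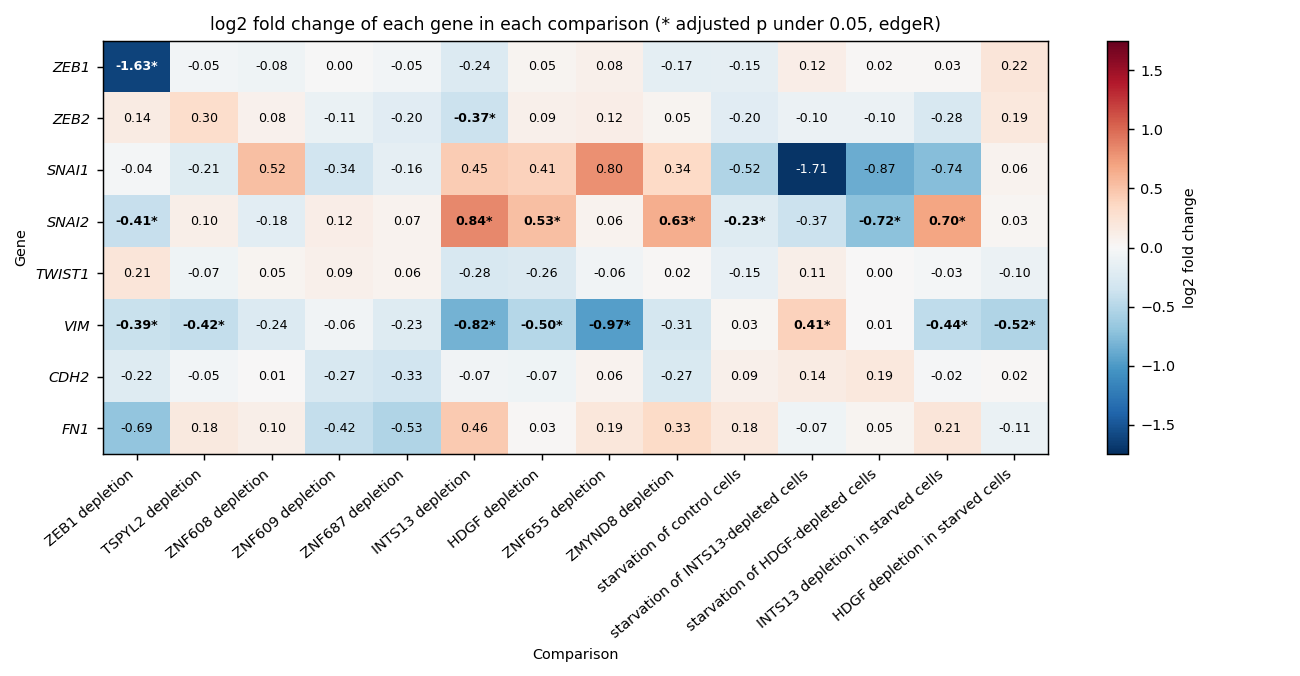
log2 fold change of the 8 genes (rows) in the 14 comparisons (columns); red is higher and blue lower, and bold values with an asterisk have an adjusted p under 0.05. Calls sit mainly in the VIM and SNAI2 rows, and the largest called change is ZEB1 in its own depletion (-1.63).

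ZEB1 (ENSG00000148516, hg38 chr10:31318495-31529814, plus strand) was the target of one siPOOL, so its level checks the labels. It stood at 19.9 and 16.2 CPM in the 2 ZEB1-depleted libraries and at 52.0, 53.5 and 61.0 CPM in the 3 controls, with no overlap. The depleted level was 32.5% of the control level (log2 fold change -1.63 ± 0.12 SE, adjusted p = 4.53e-09 by edgeR). No other comparison called ZEB1. It was at 32.7 and 34.3 CPM in INTS13 depletion, below all 4 second-set controls (36.0, 39.0, 41.6 and 42.2 CPM), but the change of -0.24 ± 0.11 did not pass (edgeR adjusted p = 0.146). Against the controls labelled for ZMYND8, a choice made after seeing the data, the INTS13 value was -0.50 ± 0.12 with an edgeR adjusted p of 0.00684, so this call depends on the control set. In the other 12 comparisons ZEB1 lay between -0.17 and 0.22 on the log2 scale.

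ZEB2 (ENSG00000169554, chr2:144364364-144521057, minus strand), the paralog of ZEB1, did not pass in ZEB1 depletion. Its levels there were 34.9 and 43.6 CPM against 32.8, 35.4 and 38.4 CPM, a change of 0.14 ± 0.11 with overlapping groups (edgeR adjusted p = 0.429). It fell in INTS13 depletion, to 30.1 and 28.7 CPM against 36.3, 36.6, 39.5 and 40.2 CPM in the controls. This was a change of -0.37 ± 0.10 (edgeR adjusted p = 0.017), with no overlap, and it was lost when either INTS13 library was left out (adjusted p up to 0.171). In TSPYL2 depletion the libraries were at 37.6 and 50.3 CPM, and the change of 0.30 ± 0.11 did not pass (edgeR adjusted p = 0.128). With the replicate number as a block over all libraries it was 0.32 ± 0.09 and passed (edgeR adjusted p = 0.0185), while the block in the first set alone gave 0.33 ± 0.12 and did not (edgeR adjusted p = 0.131). It rested on the second TSPYL2 library, since without it the change was 0.08.

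SNAI1 (ENSG00000124216, chr20:49982980-49988886, plus strand) encodes the repressor Snail. Its lowest change was -1.71 ± 0.52, on starvation of INTS13-depleted cells (edgeR adjusted p = 0.107). Its highest was 0.80 ± 0.36, in ZNF655 depletion (edgeR adjusted p = 0.17). The first came from 27 and 33 counts with glucose against 8 and 8 counts without. The second came from 21 and 58 counts in the 2 ZNF655 libraries, of which only the second stood above the controls (15 to 27 counts). Without that library the value turned to -0.09, and without the first it was 1.34 (edgeR adjusted p = 0.0493). The starvation change passed in the second set alone (edgeR adjusted p = 0.0276).

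SNAI2 (ENSG00000019549, chr8:48917598-48921740, minus strand), which encodes the repressor Slug, changed in both directions. In INTS13 depletion it rose to 42.9 and 40.0 CPM, from 22.3 to 23.7 CPM in the 4 controls, a change of 0.84 ± 0.08 (edgeR adjusted p = 1.12e-07). In HDGF depletion it was at 34.5 and 32.2 CPM, above the same controls, a change of 0.53 ± 0.08 (edgeR adjusted p = 0.000288). HDGF is a chromatin-binding growth factor. Against the controls labelled for ZMYND8 both rises remained called, at 0.81 ± 0.10 and 0.49 ± 0.10.

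In ZMYND8 depletion SNAI2 stood at 37.2 and 36.2 CPM against 25.0 and 22.2 CPM, a change of 0.63 ± 0.10 (edgeR adjusted p = 0.000938). ZMYND8 is a reader of modified histones. The call was lost without the second ZMYND8 control, with an edgeR adjusted p of 0.0814. By contrast, SNAI2 fell in ZEB1 depletion, to 27.5 and 25.9 CPM from 34.6 to 36.4 CPM in the 3 controls (-0.41 ± 0.09, edgeR adjusted p = 0.0111). The groups did not overlap. With the replicate number as a block in the first set alone it was -0.42 ± 0.09 (edgeR adjusted p = 0.0343). It missed in that set with no block (edgeR adjusted p = 0.372) and with a block by title numbers (0.112), and without the first ZEB1 library it was -0.45 with an edgeR adjusted p of 0.0791. With no filter on low counts it also missed, with an edgeR adjusted p of 0.0582. In ZNF655 depletion SNAI2 was at 22.9 and 25.5 CPM, overlapping the controls (0.06 ± 0.09, edgeR adjusted p = 0.719).

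Starvation lowered SNAI2 in HDGF-depleted cells. Its level was 20.6 and 19.7 CPM without glucose and 34.5 and 32.2 CPM with it, a change of -0.72 ± 0.10 (edgeR adjusted p = 0.000233) with no overlap. In control cells it fell from 22.3 to 23.7 CPM to 17.3, 20.5, 20.6 and 20.7 CPM, a change of -0.23 ± 0.07 (edgeR adjusted p = 0.0274). That smaller call was lost when control 3a, 3b or 4a with glucose or control 3b without glucose was left out (edgeR adjusted p up to 0.13). In INTS13-depleted cells it was at 33.7 and 30.4 CPM without glucose, a change of -0.37 ± 0.10 that did not pass in the fit of all libraries (edgeR adjusted p = 0.0567). It passed by DESeq2 (adjusted p = 0.0128) and by edgeR in the second set alone (adjusted p = 0.00617) and with the block over all libraries (adjusted p = 0.0114), so this call depends on the fit.

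Among starved cells SNAI2 stayed higher in INTS13-depleted than in control cells, by 0.70 ± 0.09 (edgeR adjusted p = 8.06e-06), and did not overlap. HDGF-depleted starved cells, at 20.6 and 19.7 CPM, overlapped the starved controls (0.03 ± 0.09, edgeR adjusted p = 0.956). The difference between the starvation responses of HDGF-depleted and control cells was -0.50 ± 0.12 with an unadjusted p of 0.000464. It did not pass over all genes (edgeR adjusted p = 0.559). No gene passed in that interaction by edgeR, with 909 genes at an unadjusted p under 0.05 and 0 to 40 genes called over the other settings. For INTS13 the difference in SNAI2 was -0.14 ± 0.12 (edgeR adjusted p = 0.997).

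TWIST1 (ENSG00000122691, chr7:19020991-19117636, minus strand), a basic helix-loop-helix factor, ran from 6.04 to 12.2 CPM. Its changes lay between -0.28 and 0.21. The lowest, in INTS13 depletion, came from 7.27 and 6.04 CPM against 9.71, 8.16, 7.29 and 7.22 CPM in controls, which overlapped (-0.28 ± 0.15, edgeR adjusted p = 0.23). Against the controls labelled for ZMYND8 (10.9 and 8.58 CPM) TWIST1 passed in INTS13 depletion at -0.56 ± 0.17 and in HDGF depletion at -0.53 ± 0.17 (edgeR adjusted p = 0.0259 and 0.0372).

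VIM (ENSG00000026025, chr10:17228241-17237593, plus strand) was lower in every one of the 9 depletions with glucose, and the test passed in 5 of them. The largest fall was in ZNF655 depletion, to 317 and 356 CPM from 630 to 684 CPM in the 4 controls (-0.97 ± 0.08, edgeR adjusted p = 1.18e-08). INTS13 depletion followed with 379 and 365 CPM (-0.82 ± 0.08, edgeR adjusted p = 8.92e-08), and HDGF depletion with 468 and 459 CPM (-0.50 ± 0.08, edgeR adjusted p = 0.000226). None of these libraries overlapped the controls. All 3 used the same controls, but against those labelled for ZMYND8 (601 CPM in both) the falls remained called, at -0.84, -0.69 and -0.38.

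In the first set VIM fell in TSPYL2 depletion, to 411 and 421 CPM from 496, 576 and 601 CPM (-0.42 ± 0.08, edgeR adjusted p = 0.00788). TSPYL2 is a nucleosome assembly protein relative. VIM also fell in ZEB1 depletion, to 406 and 443 CPM (-0.39 ± 0.08, edgeR adjusted p = 0.00664). Both groups lay below all 3 controls. With the replicate number as a block in the first set alone both missed the threshold, at -0.40 ± 0.10 (edgeR adjusted p = 0.0662) for TSPYL2 and -0.38 ± 0.10 (edgeR adjusted p = 0.0674) for ZEB1. In that set with no block the edgeR adjusted p was 0.651 for TSPYL2 and 0.481 for ZEB1. Blocked by title numbers it was 0.342 and 0.125. With no filter on low counts TSPYL2 also missed (edgeR adjusted p = 0.0563). With the block over all libraries both passed, with edgeR adjusted p of 0.00075 and 0.001. Leaving out the second TSPYL2 library (adjusted p = 0.138), the first ZEB1 library (0.183) or control 2 (0.0564, for ZEB1) also ended the call.

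The other 4 depletions did not pass for VIM. Its levels were 463 and 484 CPM with ZNF608 depleted (-0.24 ± 0.08, edgeR adjusted p = 0.137) and 479 and 473 CPM with ZNF687 depleted (-0.23 ± 0.08, edgeR adjusted p = 0.352). ZNF609 depletion overlapped the controls at 520 and 553 CPM (-0.06 ± 0.08). ZMYND8 depletion gave 503 and 468 CPM against 601 CPM in both controls, which did not overlap (-0.31 ± 0.09, edgeR adjusted p = 0.119). DESeq2 called VIM in ZNF608 and ZMYND8 depletion, with adjusted p of 0.0104 and 0.00287.

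**Figure D3:**
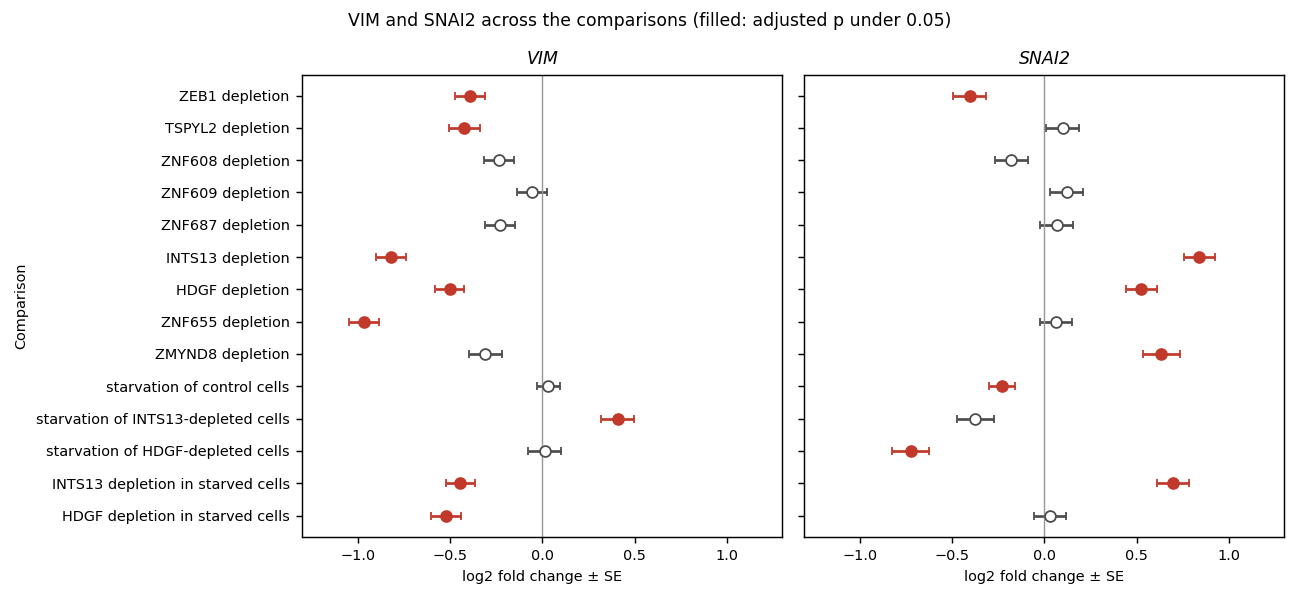
log2 fold change of VIM and SNAI2 with its SE in each comparison; filled red points have an adjusted p under 0.05 (edgeR). VIM lies below 0 in all 9 depletions with glucose, whereas SNAI2 is called higher with INTS13, HDGF and ZMYND8 depleted and lower with ZEB1 depleted.

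Starvation left VIM of control cells at 653 to 699 CPM, a change of 0.03 ± 0.06 (edgeR adjusted p = 0.799). In INTS13-depleted cells VIM rose from 379 and 365 CPM to 497 and 490 CPM, a change of 0.41 ± 0.09 (edgeR adjusted p = 0.021). That call was lost when any of the 4 libraries was left out (edgeR adjusted p from 0.156 to 0.21). It remained below the starved controls, by -0.44 ± 0.08 (edgeR adjusted p = 0.00111), as it did in starved HDGF-depleted cells at 482 and 453 CPM (-0.52 ± 0.08, edgeR adjusted p = 0.00074). The HDGF call was lost without the second starved HDGF library, with an edgeR adjusted p of 0.0683.

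The starvation response of VIM differed between INTS13-depleted and control cells by 0.38 ± 0.11, with an unadjusted p of 0.00206. Over all genes it did not pass by edgeR (adjusted p = 0.453), where 0.0156% of genes were called. DESeq2 gave an adjusted p of 0.011 and the edgeR fit of the second set alone 0.0124, so this result depends on the fit. For HDGF the difference in VIM was -0.02 ± 0.11 (edgeR adjusted p = 1).

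CDH2 (ENSG00000170558, chr18:27950966-28177130, minus strand), the cadherin of mesenchymal and neural cells ranged from 67.6 to 116 CPM. In the second set its levels with glucose ran from 94.3 to 109 CPM and the changes in its 3 depletions lay between -0.07 and 0.06 on the log2 scale. The low values were in number-1 libraries of the first set. They were 69.0 CPM with ZEB1, 67.6 with ZNF687, 78.9 with ZNF609 and 81.6 in control 1a, against 108, 97.5, 92.5 and 113 and 116 CPM in the matching later libraries. In ZEB1 depletion the change was -0.22 ± 0.16 (edgeR adjusted p = 0.4). It turned to 0.06 without the first ZEB1 library and was -0.59 ± 0.17, with an edgeR adjusted p of 0.00925, without the second. In ZMYND8 depletion CDH2 was at 88.0 and 92.2 CPM against 110 and 106 CPM (-0.27 ± 0.17, edgeR adjusted p = 0.711), and it passed in the ZMYND8 libraries alone (edgeR adjusted p = 0.00653).

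FN1 (ENSG00000115414, chr2:215360440-215436073, minus strand) spread widely between libraries of 1 group in the first set. The first-set controls were at 33.3, 66.4 and 63.6 CPM and the ZEB1-depleted libraries at 21.9 and 45.3 CPM, which overlapped. The change of -0.69 ± 0.24 did not pass (edgeR adjusted p = 0.107). With the replicate number as a block it was -0.61 ± 0.19 in the first set alone (edgeR adjusted p = 0.115) and -0.61 ± 0.15 over all libraries, where it passed (edgeR adjusted p = 0.00727). It was -0.27 ± 0.25 without the first ZEB1 library and -1.32 ± 0.28 without the second, where it passed (edgeR adjusted p = 0.00103), as it did at -0.94 without control 1a. The 3 libraries with the least FN1, the number-1 libraries of ZEB1 and ZNF687 and control 1a, had the 3 highest shares of ribosomal protein counts in the set, 16.5%, 14.5% and 13.1%. The part of that share in these results was not tested.

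In INTS13 depletion FN1 was at 75.1 and 72.0 CPM, above the 4 controls at 48.8 to 58.1 CPM. The change of 0.46 ± 0.22 did not pass in the fit of all libraries (edgeR adjusted p = 0.193), whose spread includes the first set. Within the second set alone the same change had an SE of 0.08 and an edgeR adjusted p of 7.84e-05. ZMYND8 depletion gave 72.8 and 87.3 CPM against 60.5 and 66.5 CPM, a change of 0.33 ± 0.26 (edgeR adjusted p = 0.809), which passed in the ZMYND8 libraries alone (edgeR adjusted p = 0.0108).

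**Figure D4:**
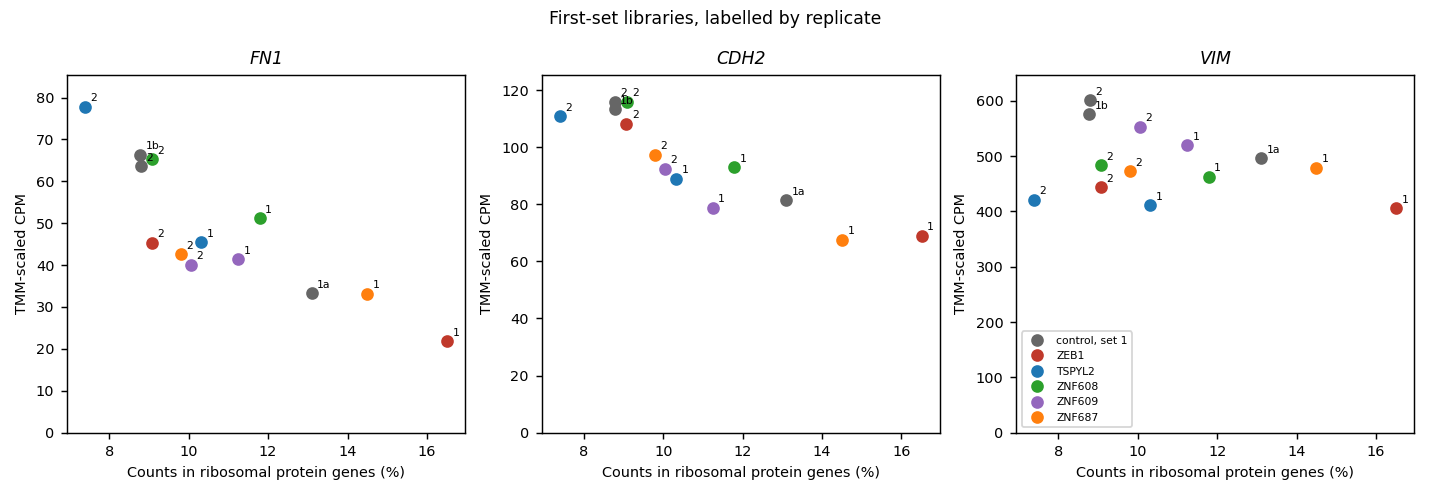
TMM-scaled CPM of FN1, CDH2 and VIM (linear axes from 0) against the percentage of counts in 85 ribosomal protein genes in the 13 first-set libraries; colours are groups and labels replicate numbers. FN1 runs from 21.9 CPM at 16.5% to 77.9 CPM at 7.39%, and CDH2 is likewise lower in number-1 libraries.

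Part of the genes known to be repressed by ZEB1 rose when it was depleted. Of 37 epithelial genes listed as repressed by ZEB1, 24 were tested, and 8 rose and 0 fell by edgeR and by DESeq2 (11 higher and 1 lower at an unadjusted p under 0.05). Over all genes 1.78% rose and 1.99% fell. The filter kept a gene that was high enough in as few libraries as the smallest group holds. Listed genes low in controls could thus be tested because they were high in a depletion. These counts therefore describe the list and do not test it. The list had a median log2 fold change of 0.30, against 0.01 over all genes. SPINT2, a protease inhibitor of epithelia, rose from 49.1 ± 8.19 to 130 ± 39.2 CPM (1.40 ± 0.14, edgeR adjusted p = 8.79e-07). BSPRY rose by 1.86 ± 0.21 (edgeR adjusted p = 5.26e-06). EPCAM, an epithelial adhesion molecule, was at 8.05 and 7.59 CPM against 2.30, 1.46 and 2.37 CPM (1.93 ± 0.25, edgeR adjusted p = 2.36e-05).

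CDH1 was at 6.19 and 16.5 CPM in ZEB1 depletion against 2.43, 6.44 and 6.31 CPM in controls. The groups overlapped, and the change of 1.17 ± 0.36 did not pass (edgeR adjusted p = 0.0677). By the description numbers CDH1 was higher with ZEB1 depleted in each pair, but by the title numbers the first ZEB1 library lay below control 1b. The keratins KRT8 and KRT18, which are also HEK293T markers, rose from a mean of 8.28 to 19.0 ± 0.0152 CPM and from 60.8 ± 9.80 to 86.8 ± 11.6 CPM (edgeR adjusted p = 2.36e-05 and 0.00466). The epithelial count was 5 without the first ZEB1 library and 8 without control 1a, while it was 8 with 2 lower without the second ZEB1 library. It was 7 with the block in the first set alone, 3 in that set with no block or blocked by title numbers, and 12 with 1 lower with the block over all libraries.

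Mesenchymal structural genes leaned lower in ZEB1 depletion, with a median of -0.45 over 27 tested genes of 34, but only 2 fell and 0 rose. At an unadjusted p under 0.05, 9 were lower and 1 higher, and DESeq2 called 5 lower and 1 higher. A lean was not particular to ZEB1 depletion. Against the same controls the median was -0.26 with ZNF609, -0.23 with ZNF687, -0.22 with ZNF608 and -0.05 with TSPYL2 depleted. ITGAV, an integrin subunit, fell from 83.6 ± 6.58 to 57.0 ± 18.3 CPM (-0.55 ± 0.13, edgeR adjusted p = 0.0201). Against the same controls ITGAV also fell in ZNF608 depletion, to 49.6 ± 3.63 CPM (-0.75 ± 0.13, edgeR adjusted p = 0.00143). MMP2, a gelatinase, fell from 2.72 ± 0.766 to 1.00 ± 0.518 CPM (-1.38 ± 0.34, edgeR adjusted p = 0.0236). The count rested on single libraries. Without control 1b or 2 it was 0, and without the first ZEB1 library it was 0 with a median of -0.17. Without the second it was 16 lower and 2 higher, and without control 1a 9 lower and 2 higher, while the block gave 9 lower and 1 higher over all libraries and 1 lower and 0 higher in the first set alone. That set with no block gave 0, and no filter on low counts gave 8 lower and 1 higher.

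Of the TGF-beta and SMAD pathway, which induces ZEB1, SNAI1 and SNAI2 in many tissues, 1 of 18 tested genes rose and 2 fell with ZEB1 depleted, where 1.78% of all genes rose and 1.99% fell. The receptor TGFBR1 fell from 99.0 ± 10.8 to 55.5 ± 4.76 CPM (-0.84 ± 0.10, edgeR adjusted p = 7.04e-06). LTBP1, which binds latent TGF-beta, fell by 0.94 ± 0.23 on the log2 scale (edgeR adjusted p = 0.0233), and ID2 rose by 0.55 ± 0.15 (edgeR adjusted p = 0.0363). Of 10 corepressors and cofactors of ZEB proteins only the deacetylase SIRT1 passed (-0.30 ± 0.08, edgeR adjusted p = 0.0379). Of 16 tested further factors of the transition only TCF12 passed (-0.38 ± 0.07, edgeR adjusted p = 0.0038).

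Tested epithelial genes also rose in INTS13 depletion. ZEB1 was not called there (-0.24 ± 0.11), but it was against the controls labelled for ZMYND8 (-0.50 ± 0.12). ZEB2 was called lower in INTS13 depletion (-0.37 ± 0.10), a call lost without either INTS13 library. There 15 of 24 genes rose and 1 fell (12 and 1 by DESeq2), against 6.53% and 6.23% of all genes, with a median of 0.86 against 0.01. Here too a listed gene low in controls could pass the filter through the depleted libraries. The lists were also chosen with earlier results known, so the count is a description. EPCAM was at 6.78 and 5.26 CPM against 0.510 to 1.39 CPM (2.65 ± 0.26, edgeR adjusted p = 7.5e-08). CDH1 was at 8.25 and 8.61 CPM against 1.33 to 1.76 CPM (2.40 ± 0.38, edgeR adjusted p = 8.27e-05). PATJ, a polarity protein, rose from 58.6 ± 0.396 to 106 ± 4.25 CPM and SPINT2 from 31.2 ± 3.53 to 75.0 ± 3.87 CPM. Against the controls labelled for ZMYND8 the list gave 9 higher and 1 lower with a median of 0.39, and without the first or the second INTS13 library it gave 7 or 8 higher. In these controls CDH1 was at 4.13 and 2.75 CPM, above the second-set controls.

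Of 27 mesenchymal structural genes 2 rose and 1 fell with INTS13 depleted (median 0.13). The count was 7 higher and 1 lower in the second set alone, 5 and 1 with no filter or with the block over all libraries, and 4 and 1 without control 3a. It was 1 and 1 without control 3b or 4a or either INTS13 library. Those called with all libraries were ACTA2, a smooth muscle actin, by 2.16 ± 0.23, the collagen COL1A1 by 1.24 ± 0.36, and the tropomyosin TPM1 by -0.60 ± 0.10 (edgeR adjusted p = 3.01e-07, 0.0214 and 8.23e-05). COL1A1 is also 1 of the 5 fibroblast markers, whose summed level was 7.14 to 9.60 CPM in INTS13 depletion against 3.22 to 4.92 CPM in controls, with DCN and LUM at a median under 0.1 CPM. The part of this in the result was not tested. Of 10 corepressors and cofactors of ZEB proteins 2 fell and 0 rose, against 6.23% and 6.53% of all genes. They were CTBP2 (-0.23 ± 0.07, edgeR adjusted p = 0.0224) and HDAC2 (-0.26 ± 0.08, edgeR adjusted p = 0.0271). Of 16 tested further factors of the transition 3 fell and 0 rose. Among them SOX4 fell by 1.13 ± 0.18 on the log2 scale (edgeR adjusted p = 7.16e-05). This fall was not particular to INTS13. Against the same controls SOX4 was at -1.02 ± 0.18 in ZNF655 depletion (edgeR adjusted p = 0.000273). On starvation of control cells it was at -0.86 ± 0.14 (edgeR adjusted p = 8.05e-05).

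**Figure D5:**
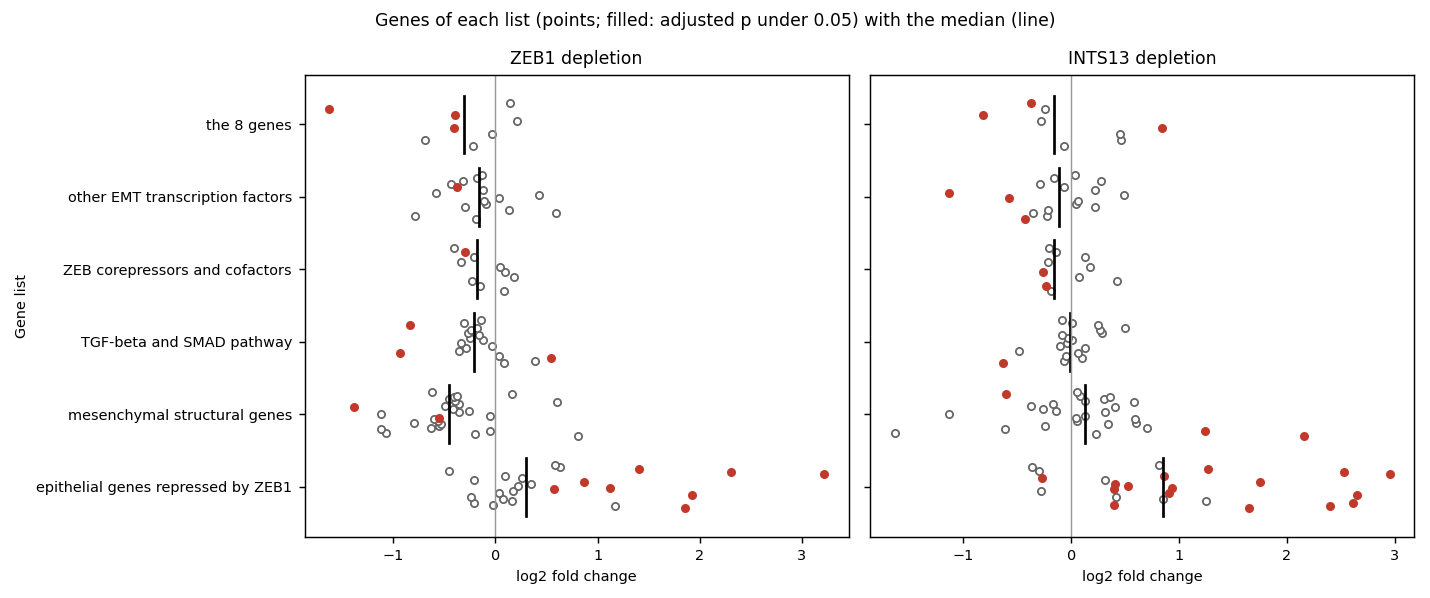
log2 fold change of every tested gene of each list in ZEB1 depletion (left) and INTS13 depletion (right); filled red points have an adjusted p under 0.05 and black lines are medians. The epithelial list has medians of 0.30 and 0.86, and the mesenchymal structural list medians of -0.45 and 0.13.

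In the other depletions with glucose the epithelial list had edgeR calls in both directions or none. With HDGF depleted 2 rose and 2 fell (median -0.29), against 1.89% and 2.6% of all genes. With ZNF655 depleted 4 rose and 2 fell (median 0.19), against 6.57% and 4.88%. BSPRY, which rose with ZEB1 depleted, was at -1.16 ± 0.30 with HDGF and -0.97 ± 0.29 with ZNF655 depleted. The edgeR adjusted p was 0.0234 and 0.0282. OCLN was at -0.36 ± 0.08 and -0.37 ± 0.08 (edgeR adjusted p = 0.00636 and 0.00265). CLDN4, at 0.05 CPM in controls, was at 3.03 ± 0.58 and 2.31 ± 0.63 (edgeR adjusted p = 0.0016 and 0.0163). Starvation of control cells gave 2 higher and 3 lower (median -0.23), against 8.77% and 8.05% of all genes. TSPYL2, ZNF608, ZNF609, ZNF687 and ZMYND8 depletion gave 0 calls by edgeR. In these 5 there were 3, 2, 3, 2 and 1 genes at an unadjusted p under 0.05, and DESeq2 called 1 gene in ZNF608 depletion and 0 in the others. EPCAM in HDGF depletion was at 0.281 and 0.578 CPM, a change of -1.15 ± 0.39 (edgeR adjusted p = 0.106). Among starved cells INTS13 depletion raised 8 of the 24 and lowered 0, against 2.32% and 1.54% of all genes, with a median of 0.79; 16 were higher and 1 lower at an unadjusted p under 0.05, and DESeq2 called 9 and 0. CDH1 rose by 2.04 ± 0.42 and EPCAM by 2.70 ± 0.30 (edgeR adjusted p = 0.004 and 1.95e-06).

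Of the mesenchymal structural list, 5 of 27 rose and 2 fell in ZNF655 depletion (median 0.27), against 6.57% and 4.88% of all genes. ACTA2 rose by 2.76 ± 0.22 and LOX, a collagen cross-linking enzyme, by 0.84 ± 0.18, while the matrix protein TNC fell by 1.86 ± 0.22 on the log2 scale (edgeR adjusted p = 5.63e-09, 0.00256 and 2.8e-06). VIM itself, which is not on this list, fell there. On starvation of control cells 2 rose and 4 fell, against 8.77% and 8.05% of all genes, with ACTA2 at 1.60 ± 0.21, TPM1 at -0.66 ± 0.08 and TNC at -0.77 ± 0.16 (edgeR adjusted p = 6.13e-06, 1.69e-06 and 0.00148). ACTA2 also rose in ZNF608 and ZMYND8 depletion, by 0.90 ± 0.23 and 1.31 ± 0.28 (edgeR adjusted p = 0.0287 and 0.0213).

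Antisense neighbours were examined because the strand setting of the counting was not given in the sources used here. ZEB1-AS1, which starts head to head with ZEB1, shares 1953 bases with it and had a median of 165 counts against 1055 for ZEB1. In ZEB1 depletion it was at 9.28 and 8.08 CPM against 7.36, 9.06 and 8.91 CPM (0.03 ± 0.13, edgeR adjusted p = 0.901). It fell in ZNF608 depletion, to 5.17 and 5.37 CPM (-0.68 ± 0.14, edgeR adjusted p = 0.00488), where ZEB1 was at -0.08 ± 0.11. On starvation of control cells ZEB1-AS1 rose from 3.91 to 5.26 CPM to 6.25 to 7.75 CPM (0.59 ± 0.11, edgeR adjusted p = 0.000593), and ZEB1 was at -0.15 ± 0.09. Whether these 2 pairs of responses differ was not tested. VIM-AS1 shares 1745 bases with VIM and had a median of 130 counts against 14295 for VIM, and its changes lay between -0.43 and 0.22 on the log2 scale. ZEB2-AS1 had 0 to 6 counts and did not pass the filter.

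Patterns over the 35 libraries were compared as log2 CPM centred on the mean of each set. The libraries share cells, depth and controls within a set, so these correlations are descriptions. VIM was most like TUBB2B (Pearson r = 0.898), NKIRAS2 (0.849) and G3BP1 (0.832). SNAI2 was most like LONRF3 (0.814), TAF5L (0.767) and TANGO6 (0.765), and ZEB1, whose range is set by its own depletion, most like RAB12 (0.853), ZADH2 (0.828) and PERP (0.808). CDH2 was most like MAVS (0.897), SPTBN1 (0.877) and TLN1 (0.876), and FN1 most like SH3PXD2B (0.915), FOXRED2 (0.907) and COL4A2 (0.901). ZEB2 was nearest to PCDH9 (0.793), TWIST1 to MRPL41 and PACC1 (both 0.701), and SNAI1 to CRTC2 (0.769). Among the 8 genes themselves the highest r was 0.699, between CDH2 and FN1, and VIM and SNAI2 gave -0.461.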

How the data were processed

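The deposited values were raw read counts per gene, 1 column for each of 35 libraries, made by the authors from reads of a stranded total RNA kit. Trimming and alignment used FastQC, cutadapt and STAR on hg38, per the submitters' processing notes. The counting tool, its strand setting and the annotation are not given in the sources used here. Positions and symbols are those of the deposited table, whose identifiers matched GENCODE release 29 for 58478 of 60665 genes (96.4%).

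Libraries were grouped by their labels. Genes were filtered with filterByExpr by group (19275 kept) and scaled by TMM. One edgeR 4.0.16 quasi-likelihood fit (R 4.3.3) of 15 group means, with 20 residual and 5.87 prior degrees of freedom and no block, gave each comparison as a two-sided contrast. A gene was called where its p, adjusted by Benjamini-Hochberg across 19275 genes, was under 0.05. SE is that of the log2 fold change. The fit was tested on simulated counts with known changes. Log2 CPM used a prior count of 2. DESeq2 1.42.0 (with its own size factors), DESeq2 size factors in edgeR, no filter, each set alone, replicate blocks, other controls and leaving out each library were alternatives.

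The first-set numbers paired the libraries: taken from the descriptions, differences between numbers correlated above 0.1 in 15 of 15 pairs of groups (median r 0.742 over 11515 genes, range 0.398 to 0.907). They did not in the second set (6 of 21, median 0.0254), and the ZMYND8 libraries had 1 pair (r 0.103). Titles number the first-set controls 1a, 1b and 2, used as names here, whereas descriptions group 1b and 2.

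The genes and lists were chosen with earlier results of these data known. Of each list at most 3 genes per comparison are named, those called with the lowest p and no overlap between libraries; the antisense neighbours, CDH1 and EPCAM always are. Likeness was ranked among protein-coding genes whose log2 CPM averaged 2 or more, and the closest 1 to 3 are named. No ZMYND8 library without glucose was analysed here. One gene that the naming rule selects is not reported here.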

Additional observations from a re-analysis of the deposited data

Results flagged for a closer look

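In groups of 4 control libraries, 2 values lay far from the others of their group by Dixon's criterion. ZEB2 was at 29.7 CPM in starved control 4a, against 34.2 to 34.9 CPM in the other 3. SNAI2 was at 17.3 CPM in starved control 3b, against 20.5 to 20.7 CPM in the other 3. The criterion was applied to 16 sets of 4 libraries and is met by chance in about 1 in 20. Without starved control 3b the fall of SNAI2 on starvation of control cells was no longer called by edgeR.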

How the results depend on the processing

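Of the 17 called pairs of gene and comparison, 9 passed in every alternative run for them (10 to 14 each): ZEB1 in its own depletion, SNAI2 and VIM in INTS13 depletion with and without glucose and in HDGF depletion with glucose, VIM in ZNF655 depletion, and SNAI2 on starvation of HDGF-depleted cells. No called value changed sign, and 73 uncalled values did, 69 of them within 1 SE of 0. The number of the 8 genes called moved by over 1.5 times as follows, and the cause was not tested. With no filter it was 0 in TSPYL2 depletion, 1 in ZNF687 depletion and 0 on starvation of control cells. DESeq2 gave 1 in ZNF608 depletion, 2 in ZMYND8 depletion, 2 on starvation of INTS13-depleted cells and 1 in the INTS13 interaction. Each set alone gave 1 in ZEB1, 0 in TSPYL2 and 4 in ZMYND8 depletion, 3, 3 and 2 on starvation of control, INTS13- and HDGF-depleted cells, and 1 in the INTS13 interaction. With the replicate block, the set alone gave 0 in TSPYL2 and 4 in ZMYND8 depletion, 3, 3 and 2 on those starvations and 1 in that interaction. With that block ZEB1 in ZEB1 depletion was -1.62 (edgeR adjusted p = 1.64e-05). Blocking by title numbers gave 1 in ZEB1 and 0 in TSPYL2 depletion. The block over all libraries gave 2 in TSPYL2 depletion, 2 in ZMYND8 depletion and 3 on starvation of INTS13-depleted cells. Controls labelled for ZMYND8 gave 5 in INTS13 depletion. Leaving out 1 library gave 1 to 5 in ZEB1, 0 to 2 in TSPYL2, 0 to 1 in ZNF608, 1 to 2 in ZNF655 and 0 to 1 in ZMYND8 depletion, 0 to 1 on starvation of control cells, 0 on starvation of INTS13-depleted cells and 0 to 1 for HDGF in starved cells. Over all genes, ZEB1 depletion called 726 genes, 115 to 7361 with 1 library left out and 28 to 2630 in other settings, and TSPYL2 depletion 428, 12 to 838 and 1 to 3533. For INTS13 depletion these were 2459, 889 to 2263 and 2064 to 5630, and for ZMYND8 depletion 144, 21 to 58 and 140 to 2246. Where a library left out leaves 1 in a group, that library is assumed to vary like the other groups. SNAI1, at 8 to 58 counts, is limited by depth.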
